A study of Homo sapiens with 12 samples.

Results

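The response to diallyl trisulfide (DATS), a sulfur compound of garlic oil, was compared between 2 human breast epithelial lines by taking the change in SK-BR-3 minus the change in MCF-10A for each gene. MCF-10A is a non-transformed, immortalised mammary epithelial line with basal features, and SK-BR-3 derives from a breast carcinoma that carries extra copies of ERBB2. Each line received either DMSO alone, at a final 0.07%, or 20 µM DATS for 16 h, which gives 4 groups of 3 independently prepared RNA-seq libraries. Each side of the comparison is 1 line, so the values describe these lines and not normal and cancer cells in general. Genes were counted where the mean over the 6 libraries of each line reached 1 FPKM (fragments per kilobase of gene, scaled to library depth), so that a change could be measured in both. In all, 10013 of 58735 genes met this rule, and 10012 of them also passed the filter of the statistical fit. At the edge of the rule, ZSWIM6 was inside with a mean of 1.00 FPKM in SK-BR-3 and MARCH8 was outside with 0.999 FPKM.

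The 12 libraries held 15295046 to 18407213 reads in genes. The lines matched their labels: ERBB2 stood at 7.91 to 8.60 FPKM in MCF-10A with DMSO and at 470 to 517 FPKM in SK-BR-3 with DMSO. KRT14, a basal keratin, stood at 1472 to 1620 FPKM in MCF-10A with DMSO and at 0.0541 to 0.146 FPKM in SK-BR-3 with DMSO. None of the 10 leukocyte and none of the 10 endothelial markers reached 1 FPKM on average in both lines. In SK-BR-3 the summed level of the endothelial markers moved with the treatment, from 18.4 to 22.15 FPKM with DMSO to 29.1 to 39.1 FPKM with DATS. CDH5 (9.75 to 15.1 FPKM with DMSO and 21.2 to 30.02 FPKM with DATS) and ESAM made up nearly all of it, while PECAM1 reached at most 0.0172 FPKM there and ERG, TIE1 and EMCN were listed at 0. Preparation here means the DMSO and DATS libraries of a line that carry the same number in their titles. The labels do not state that these were prepared together. Preparation 3 of MCF-10A stood apart. The chi-square per degree of freedom between DMSO libraries 1 and 2 was 3.76, against 25.8 and 25.4 for the pairs with library 3. With DATS the same pairs gave 3.90, against 16.2 and 14.4. DMSO library 1 of SK-BR-3 stood apart in the same way, with 22.9 and 21.7 against 6.54 for libraries 2 and 3. The SK-BR-3 libraries with DATS held no close pair, with values of 23.0, 20.1 and 19.6. The share of reads in ribosomal RNA genes was 0.243% to 0.257% in MCF-10A with DMSO and 0.261% to 0.386% with DATS. In SK-BR-3 it was 0.344% to 0.410% with DMSO and 0.427% to 0.557% with DATS. It moved with the treatment in both lines, and its part in the results was not tested.

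DATS reacts with thiols, and the programmes described below are those of dividing cells and of thiol and protein stress. Genes for mitosis are switched on together in G2 and M phase, mostly by the MuvB complex with B-MYB and FOXM1, and are held down in quiescent or arrested cells by the DREAM complex, which binds a cell cycle homology region (CHR, core letters TTTGAA). Electrophiles modify cysteines of KEAP1 and so release NRF2, which binds antioxidant response elements and raises genes for glutathione synthesis, thioredoxin reduction and NADPH supply. Misfolded protein activates HSF1, which raises the cytosolic heat shock proteins.

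The promoters of 5 genes whose responses are described below are shown to place these motifs. Each runs from 250 bases before to 50 bases after the gene's start in the RefSeq table for GRCh38.p14, on the gene's own strand, with matches on either strand in capitals. For the first 3, which fell in MCF-10A and rose in SK-BR-3, capitals mark TTTGAA, or its reverse complement where the match lies on the other strand, and the CCAAT box. The window of CCNB1 holds CCAAT alone, with no match of TTTGAA on either strand. No match of one overlaps a match of the other in these windows. For the last 2, which belong to the NRF2 list, capitals mark the antioxidant response element core TGACNNNGC or its reverse complement.
CDC20, chr1:43358731-43359030, plus strand: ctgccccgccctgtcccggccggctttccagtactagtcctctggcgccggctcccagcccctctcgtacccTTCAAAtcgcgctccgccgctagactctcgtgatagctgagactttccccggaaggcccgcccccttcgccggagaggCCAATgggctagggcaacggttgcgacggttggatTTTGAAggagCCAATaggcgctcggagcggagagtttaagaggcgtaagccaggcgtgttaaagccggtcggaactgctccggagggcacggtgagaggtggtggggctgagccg
CCNB1, chr5:69166900-69167199, plus strand: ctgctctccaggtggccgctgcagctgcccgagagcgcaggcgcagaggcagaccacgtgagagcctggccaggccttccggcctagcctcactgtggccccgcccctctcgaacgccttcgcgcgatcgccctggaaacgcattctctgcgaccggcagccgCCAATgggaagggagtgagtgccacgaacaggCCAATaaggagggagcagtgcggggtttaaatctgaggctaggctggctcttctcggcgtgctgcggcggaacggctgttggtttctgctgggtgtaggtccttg
CEP55, chr10:93496362-93496661, plus strand: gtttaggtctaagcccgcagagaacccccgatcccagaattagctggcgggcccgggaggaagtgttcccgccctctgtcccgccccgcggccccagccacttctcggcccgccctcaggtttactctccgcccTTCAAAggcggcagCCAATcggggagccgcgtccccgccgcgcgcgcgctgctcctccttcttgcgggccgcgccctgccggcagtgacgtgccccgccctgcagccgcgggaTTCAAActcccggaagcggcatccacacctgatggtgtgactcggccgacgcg
GCLM, chr1:93909381-93909680, minus strand: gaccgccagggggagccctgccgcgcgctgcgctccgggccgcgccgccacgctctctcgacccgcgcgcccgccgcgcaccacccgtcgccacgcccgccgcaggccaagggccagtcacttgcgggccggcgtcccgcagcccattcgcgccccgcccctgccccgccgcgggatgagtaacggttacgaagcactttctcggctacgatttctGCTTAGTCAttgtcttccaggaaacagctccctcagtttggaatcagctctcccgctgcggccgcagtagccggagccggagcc
TXNRD1, chr12:104215529-104215828, plus strand: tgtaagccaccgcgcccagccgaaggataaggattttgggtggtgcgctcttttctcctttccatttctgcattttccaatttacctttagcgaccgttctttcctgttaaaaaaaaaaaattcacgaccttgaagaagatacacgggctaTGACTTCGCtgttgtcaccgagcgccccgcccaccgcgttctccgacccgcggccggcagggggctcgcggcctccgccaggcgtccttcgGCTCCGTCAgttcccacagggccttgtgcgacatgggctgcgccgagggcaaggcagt

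TTTGAA was found in 14 of the 22 promoters (63.6%) available for genes that fell in MCF-10A and rose in SK-BR-3. It was found in 31 of 47 promoters (66%) of the G2/M and mitosis list, in 687 of 7551 promoters (9.1%) of counted genes and in 4212 of all 27305 promoters (15.4%). CCAAT was found in 14 of those 22 promoters (63.6%), in 37.9% of the promoters of counted genes and in 35.7% of all promoters. The antioxidant response element core was found in 6 of 23 promoters (26.1%) of the NRF2 list, in 15.9% of those of counted genes and in 13.6% of all. These are matches of letters in 1 window per gene, and no binding was measured.

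The change with DATS differed between the lines for 421 of the 10012 counted genes (4.2%) at an adjusted p under 0.05, which is called a difference below. The change was more positive in SK-BR-3 for 272 genes (2.72%) and more negative for 149 (1.49%), so 64.6% of the calls were higher in SK-BR-3. With edgeR on the recovered reads, which changes the input, the scaling and the test together, 189 were higher and 185 lower (3.74% called), and 50.5% of the calls were higher. DESeq2 on those reads called 495 higher and 383 lower (8.77%), with 56.4% higher. The share higher was 55.6% without MCF-10A preparation 3 and 55.9% to 72.2% in the 12 fits with 1 library left out, so the balance of directions was not stable. At an unadjusted p under 0.05 the difference stood for 21.2% of the counted genes. The estimates of the 2 lines had opposite signs for 338 of the 421 genes, and 81 differed by at least 2-fold, 51 upward and 30 downward. Over all 13194 fitted genes 4.29% were called; the 145 called among the 3182 that did not meet the line means are not described.

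Taken by the calls of each line, 610 counted genes changed in MCF-10A, 369 upward (3.69%) and 241 downward (2.41%). In SK-BR-3 1983 changed, 1259 upward (12.6%) and 724 downward (7.23%). Both lines changed in the same direction for 190 genes, 132 upward (1.32%) and 58 downward (0.579%), which is 31.1% of the genes called in MCF-10A and 9.58% of those called in SK-BR-3. They changed in opposite directions for 37 genes (0.37%), all of which also had a called difference. A difference was called with a response in SK-BR-3 alone for 287 genes (2.87%) and in MCF-10A alone for 66 (0.659%), and for 29 (0.29%) with neither response called by itself. For 1469 genes called in SK-BR-3 alone and 317 called in MCF-10A alone the difference was not called, so these are not shown to be responses of 1 line. Across the 10012 genes the 2 responses had a Pearson r of 0.35 and the same sign in 62.2%, as a description over genes that are not independent.

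**Figure D1:**
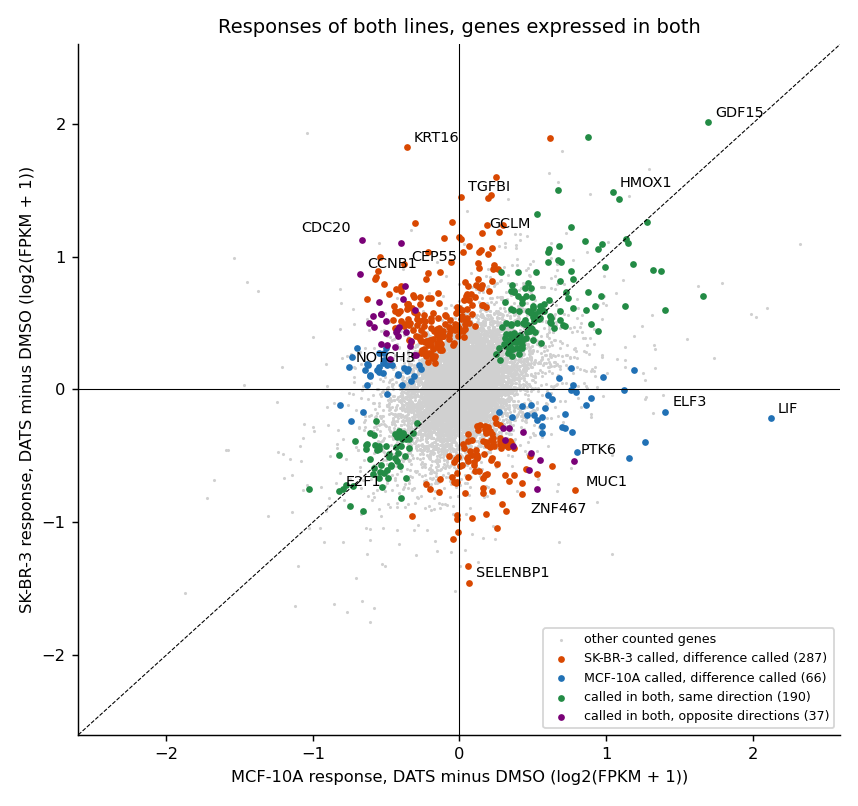
Each point is 1 counted gene, with its response (DATS minus DMSO, mean of 3 libraries each, log2(FPKM + 1)) in MCF-10A on the horizontal axis and in SK-BR-3 on the vertical axis; the dashed line marks equal responses. Colours mark the 287 genes called in SK-BR-3 alone and the 66 called in MCF-10A alone with a called difference, the 190 called in both in the same direction and the 37 called in opposite directions, which lie in the upper left and lower right of the plot.

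The count of 421 rests on single libraries. Without MCF-10A DMSO replicate 1 there were 69 genes higher and 36 lower, without replicate 2 66 and 27, and without replicate 3 433 and 342. Without MCF-10A DATS replicate 1 the counts were 97 and 39, and without replicate 2 they were 73 and 29. In SK-BR-3 they were 322 and 236 without DMSO replicate 1, 102 and 47 without DMSO replicate 2, 91 and 35 without DMSO replicate 3, and 93 and 50 without DATS replicate 3. Of the 421 genes 78 were called in all 12 fits with 1 library left out, 55 of them higher in SK-BR-3. Leaving out both libraries of MCF-10A preparation 3, an alternative added after seeing the data, gave 354 higher and 283 lower (6.36% called). With the preparation number as a block within each line the counts were 592 and 407 (9.98% called). Under that block 496 genes rose and 179 fell in both lines, 143 were opposite, and a difference was called with a response in MCF-10A alone for 219 and in SK-BR-3 alone for 557. The share of the 12 fits that kept a call is given below for named genes.

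Of the 37 opposite genes 27 fell in MCF-10A and rose in SK-BR-3 (0.27% of counted genes), and 10 of the 37 belong to the G2/M and mitosis list, which covers entry into and passage through cell division. CDC20, the activator of the anaphase-promoting complex (GENCODE 29 gene on GRCh38 at chr1:43358955-43363203), stood at 138, 131 and 139 FPKM in MCF-10A with DMSO and 97.2, 94.9 and 67.6 FPKM with DATS, and at 84.8, 102 and 93.3 FPKM in SK-BR-3 with DMSO and 199, 219 and 196 FPKM with DATS. The treated libraries were all below the controls in MCF-10A and all above them in SK-BR-3. CDC20 changed by -0.66 ± 0.13 (log2(FPKM + 1), ± SE, n = 3 libraries a group) in MCF-10A and by 1.13 ± 0.13 in SK-BR-3, a difference of 1.79 ± 0.18 with an adjusted p of 0.0018.

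CCNB1, the cyclin that with CDK1 drives entry into mitosis (chr5:69167010-69178245), stood at 104, 99.7 and 104 FPKM in MCF-10A with DMSO and 74.4, 68.7 and 50.6 FPKM with DATS, and at 43.1, 59.6 and 58.9 FPKM in SK-BR-3 with DMSO and 87.2, 106 and 103 FPKM with DATS. Its groups also did not overlap in either line. The difference was 1.55 ± 0.22 (adjusted p = 0.0063), from -0.68 ± 0.15 in MCF-10A and 0.87 ± 0.15 in SK-BR-3. CEP55, a scaffold of the final cut between daughter cells (chr10:93496632-93529092), stood at 33.6, 35.3 and 33.4 FPKM in MCF-10A with DMSO and 27.7, 27.7 and 21.8 FPKM with DATS, and at 8.86, 10.2 and 9.94 FPKM in SK-BR-3 with DMSO and 19.8, 22.04 and 23.9 FPKM with DATS. MCF-10A held more CEP55 with DMSO than SK-BR-3 did, and with DATS the ranges of the lines overlapped. The difference for CEP55 was 1.501 ± 0.15 (adjusted p = 0.0018).

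Of the other opposite genes chosen by the naming rule, PHF19, an accessory subunit of Polycomb repressive complex 2 and not a mitosis gene, stood at 12.6, 11.7 and 11.9 FPKM in MCF-10A with DMSO and 7.93, 8.69 and 7.21 FPKM with DATS, and at 0.781, 0.562 and 0.724 FPKM in SK-BR-3 with DMSO and 1.803, 1.53 and 1.66 FPKM with DATS. Both lines were separated by treatment without overlap, and the difference was 1.21 ± 0.12 (adjusted p = 0.0018). TPX2, a spindle assembly factor that activates Aurora A, fell by 0.37 in MCF-10A and rose by 0.78 in SK-BR-3, and KIF20B, a kinesin of cytokinesis, fell by 0.59 and rose by 0.56. The differences of all 6 of these genes kept their call in each of the 12 fits with 1 library left out.

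**Figure D2:**
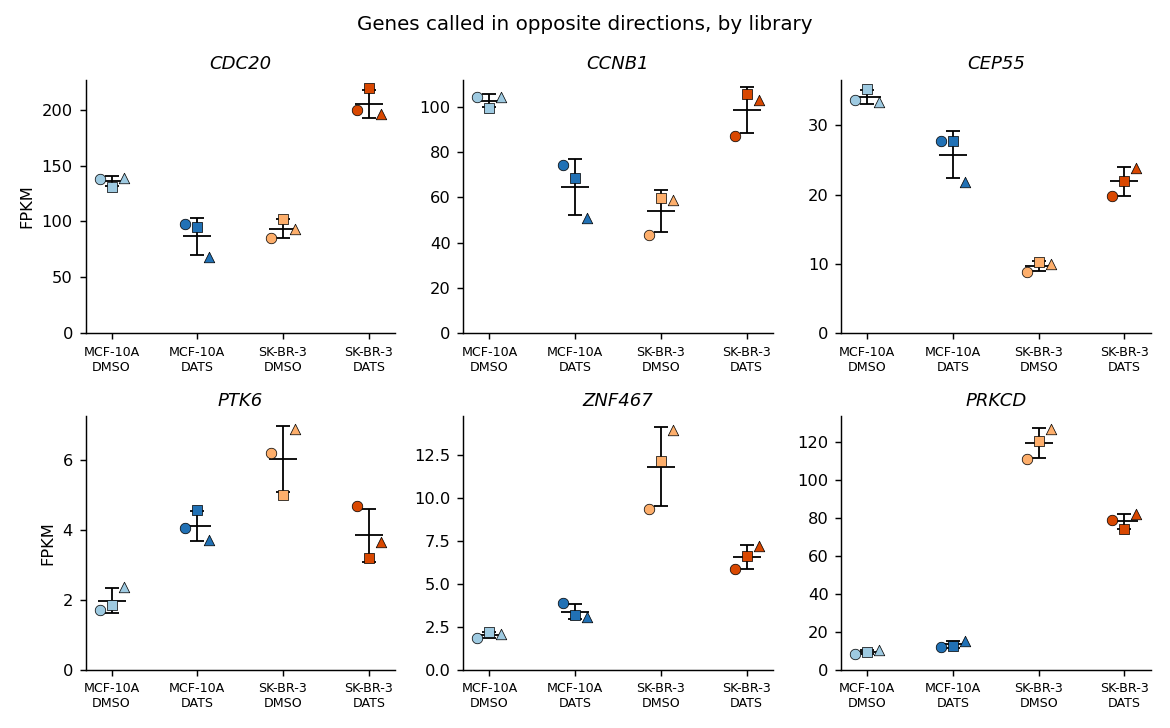
FPKM of 6 genes in each library (circle, square and triangle for preparations 1, 2 and 3), by line and treatment, with the group mean (long bar) and SD (whiskers, n = 3); each panel has its own axis from 0. In the upper row the DATS libraries are below DMSO in MCF-10A and above it in SK-BR-3, and in the lower row the reverse holds.

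The opposite genes included MKI67, the proliferation marker Ki-67, named here after its values were seen. It stood at 25.5, 25.4 and 16.8 FPKM in MCF-10A with DMSO and 14.1, 15.1 and 13.3 FPKM with DATS, and at 10.5, 10.7 and 11.2 FPKM in SK-BR-3 with DMSO and 13.8, 16.02 and 17.5 FPKM with DATS. It fell by 0.62 in MCF-10A and rose by 0.50 in SK-BR-3 (adjusted p of the difference = 0.016). The treated libraries lay below the controls in MCF-10A and above them in SK-BR-3. FOXM1, the transcription factor of the G2 programme, and PLK4, the kinase of centriole duplication, were also opposite, with differences of 0.86 ± 0.16 and 0.82 ± 0.14. The call of FOXM1 was kept in 9 of the 12 fits (adjusted p = 0.059 without MCF-10A DMSO replicate 1).

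Within the list of 55 counted G2/M and mitosis genes none rose and 14 fell in MCF-10A, while 29 rose and 1 fell in SK-BR-3. Over all counted genes 3.69% rose and 2.41% fell in MCF-10A, and 12.6% rose and 7.23% fell in SK-BR-3. The difference was called for 35 of the 55, all higher in SK-BR-3, beside 2.72% of all counted genes. The median response of the list was -0.43 in MCF-10A, 0.45 in SK-BR-3 and 0.94 for the difference, beside medians of 0.02, 0.04 and 0.02 over all counted genes. The estimate of the difference was positive for 54 of the 55, beside 52.7% of all counted genes. BUB3 was the exception at -0.07 ± 0.12. Cells of the line in G2 or M phase and the RNA of these genes per cell cannot be told apart in bulk RNA, here or for any other list.

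The kinases of the list showed the range of responses. PLK1, a kinase needed from mitotic entry to cytokinesis, stood at 37.5, 36.9 and 37.7 FPKM in MCF-10A with DMSO and 33.1, 31.1 and 22.4 FPKM with DATS, and at 19.5, 27.1 and 28.3 FPKM in SK-BR-3 with DMSO and 43.2, 51.6 and 51.01 FPKM with DATS. Its treated SK-BR-3 libraries were all above their controls, and in MCF-10A all 3 were below, though that fall was not called (-0.38 ± 0.16, adjusted p = 0.17). AURKA, the kinase of spindle poles, rose by 1.04 in SK-BR-3 and measured -0.22 ± 0.13 in MCF-10A. CCNA2, the cyclin of S and G2 phase, was opposite, at -0.53 ± 0.12 and 0.57 ± 0.12, as was the checkpoint gene MAD2L1, at -0.58 ± 0.09 and 0.47 ± 0.09.

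Not every member behaved so. CDK1, the partner of cyclin B1, stood at 42.6, 40.6 and 42.3 FPKM in MCF-10A with DMSO and 37.5, 34.5 and 29.2 FPKM with DATS, and at 42.1, 50.6 and 55.5 FPKM in SK-BR-3 with DMSO and 42.5, 41.1 and 44.4 FPKM with DATS. The treated libraries were below the controls in MCF-10A and overlapped them in SK-BR-3. Its difference of 0.11 ± 0.15 was not called, with a 95% interval from -0.23 to 0.44. CENPM, a centromere protein, fell in both lines, by 0.50 and 0.42.

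The 35 calls were again 35 with edgeR, 39 with DESeq2, 40 with the replicate block and 36 without MCF-10A preparation 3, none lower. These settings called 3.74%, 8.77%, 9.98% and 6.36% of all counted genes. Without MCF-10A DMSO replicate 1 the calls of the list were 15, the lowest of the 12 fits with 1 library left out. That fit called 69 of all counted genes higher and 36 lower. By number, preparations 1, 2 and 3 gave list medians of -0.41, -0.39 and -0.56 for MCF-10A against 0.44, 0.39 and 0.53 for SK-BR-3, so no preparation of 1 line reached the range of the other.

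**Figure D3:**
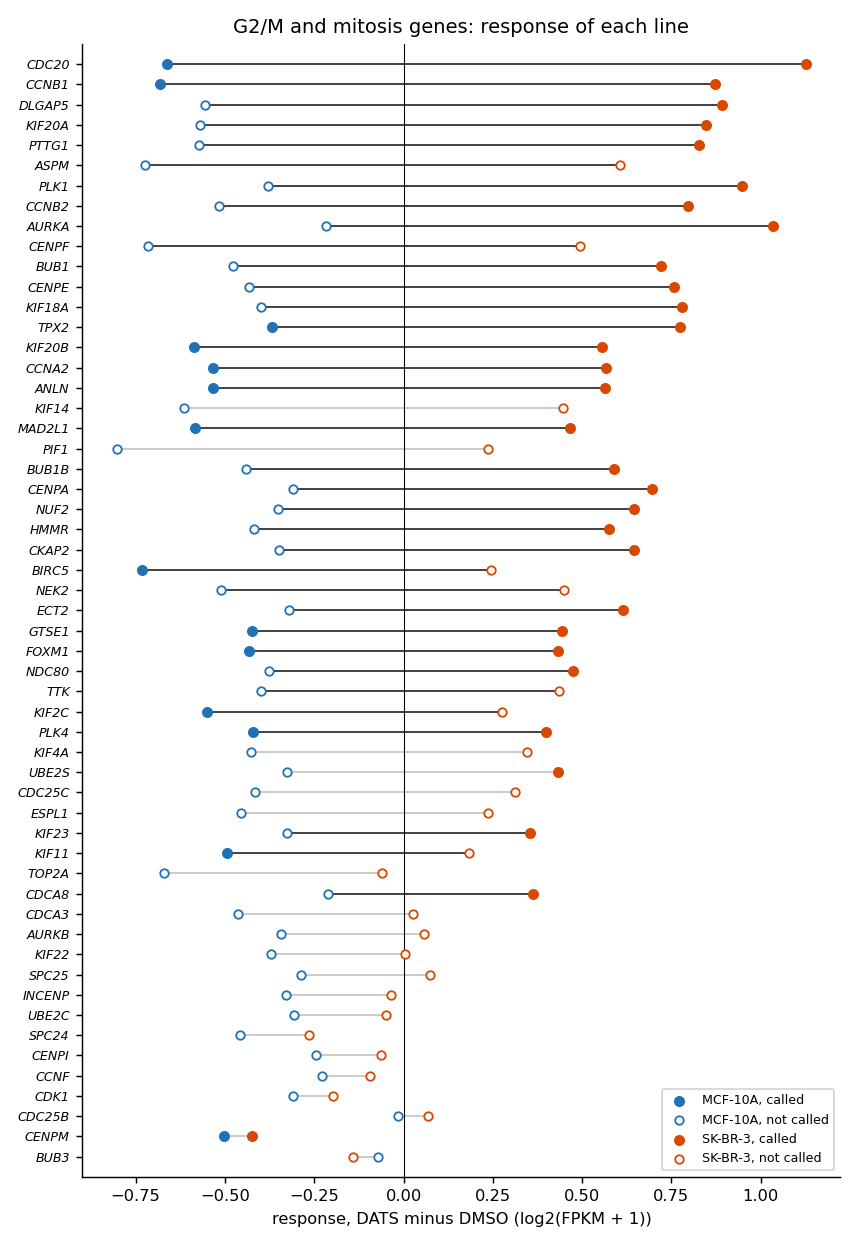
Responses (DATS minus DMSO, log2(FPKM + 1)) of the 55 counted G2/M and mitosis genes in MCF-10A (blue) and SK-BR-3 (orange), ordered by the difference; filled points are called responses and dark lines called differences. The MCF-10A point lies to the left of the SK-BR-3 point for 54 of the 55 genes.

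In the list of DNA replication genes falls were called in both lines. Of 42 counted members of the replication and G1/S list none rose in either line. The shares of all counted genes that rose were 3.69% in MCF-10A and 12.6% in SK-BR-3. Falls numbered 23 in MCF-10A and 10 in SK-BR-3, with 7 in both, beside 2.41%, 7.23% and 0.579% of all counted genes. Medians were -0.51 in MCF-10A and -0.28 in SK-BR-3. The estimate of the difference was positive for 34 of the 42, beside 52.7% of all counted genes. It was called, and positive, for 3, beside 2.72% of all counted genes: PRIM1, a DNA primase subunit (1.01 ± 0.21), RRM1, a ribonucleotide reductase subunit (0.53 ± 0.13), and UHRF1, which guides maintenance DNA methylation (0.50 ± 0.11). All 3 were called in MCF-10A alone. With 1 library left out their calls were kept in 5, 3 and 4 of the 12 fits, with an adjusted p of up to 0.078, 0.12 and 0.097. The 3 calls of the list became 8 with the replicate block, 8 without MCF-10A preparation 3, 7 with DESeq2 and 1 with edgeR, all positive. These settings called 9.98%, 6.36%, 8.77% and 3.74% of all counted genes. The DNA repair list of 28 had 10 falls in MCF-10A and 4 in SK-BR-3, beside 2.41% and 7.23% of all counted genes. It had 1 called difference, beside 4.2% of all counted genes: BRCA1 (0.71 ± 0.18), kept in 2 of the 12 fits (adjusted p of up to 0.13).

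E2F1, the activator of S phase genes, shows the shared fall. It stood at 13.3, 12.8 and 14.8 FPKM in MCF-10A with DMSO and 6.77, 6.31 and 8.96 FPKM with DATS, and at 24.1, 25.5 and 28.4 FPKM in SK-BR-3 with DMSO and 13.8, 15.3 and 15.5 FPKM with DATS. The treated libraries were below every control in both lines, by 0.82 in MCF-10A and 0.77 in SK-BR-3. The difference of 0.06 ± 0.16 had a 95% interval from -0.29 to 0.41. The other shared falls of the naming rule were the mitochondrial ribosomal gene MRPL12, the clamp loader gene CHTF18, the helicase genes DDX11 and RECQL4, and RPL26. They fell by between 0.53 (DDX11) and 0.79 (RPL26) in MCF-10A and between 0.57 (DDX11) and 0.88 (MRPL12) in SK-BR-3. RPL26 and DDX11 have near-identical copies in the genome, and no source used here says how reads shared with them were counted.

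The reverse opposite pattern, a rise in MCF-10A and a fall in SK-BR-3, was called for 10 genes. PTK6, a tyrosine kinase of epithelia that is also expressed in breast tumours (chr20:63528001-63537370), stood at 1.69, 1.86 and 2.37 FPKM in MCF-10A with DMSO and 4.04, 4.55 and 3.701 FPKM with DATS, and at 6.19, 4.99 and 6.87 FPKM in SK-BR-3 with DMSO and 4.67, 3.19 and 3.65 FPKM with DATS. The groups did not overlap in either line, and the difference was -1.32 ± 0.19 (adjusted p = 0.0069). ZNF467, a zinc finger factor (chr7:149764182-149773479), stood at 1.83, 2.18 and 2.07 FPKM in MCF-10A with DMSO and 3.88, 3.21 and 3.06 FPKM with DATS, and at 9.35, 12.2 and 13.9 FPKM in SK-BR-3 with DMSO and 5.84, 6.61 and 7.21 FPKM with DATS. It too was separated by treatment in both lines, with a difference of -1.28 ± 0.18 (adjusted p = 0.0065).

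PRKCD, the delta isoform of protein kinase C, stood at 8.25, 9.302 and 10.4 FPKM in MCF-10A with DMSO and 12.04, 12.7 and 15.3 FPKM with DATS, and at 111, 121 and 127 FPKM in SK-BR-3 with DMSO and 78.7, 74.1 and 82.1 FPKM with DATS. SK-BR-3 held far more of it than MCF-10A, and DATS brought the levels closer without overlap of the lines; the difference was -1.08 ± 0.15 (adjusted p = 0.0056). SAMD10, the membrane transporter gene SLC22A18 and the endosomal ferric reductase gene STEAP3 differed by -1.08 ± 0.16, -0.97 ± 0.15 and -0.79 ± 0.12. All 6 were called in each of the 12 fits with 1 library left out. None of the 7 promoters available for this group held TTTGAA, beside 9.1% of the promoters of counted genes. With 7 promoters this does not show a lower share.

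Responses called in SK-BR-3 alone, with a called difference, were 189 rises and 98 falls. KRT16, a keratin of stressed and wounded epithelium (chr17:41609778-41615899), stood at 64.8, 50.1 and 100.2 FPKM in MCF-10A with DMSO and 53.5, 45.9 and 62.1 FPKM with DATS, and at 2.91, 2.12 and 2.62 FPKM in SK-BR-3 with DMSO and 15.6, 10.95 and 8.91 FPKM with DATS. SK-BR-3 rose from a far lower level, by 1.82 (adjusted p = 0.001), and the MCF-10A groups overlapped (-0.36 ± 0.24). The difference was 2.18 ± 0.34 (adjusted p = 0.0081) and was kept in each of the 12 fits with 1 library left out. KRT16 and KRT17 resemble each other and have pseudogene copies, so reads may have been divided among them.

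TGFBI, a secreted matrix protein induced by TGF-beta, stood at 359, 369 and 567 FPKM in MCF-10A with DMSO and 351, 368 and 593 FPKM with DATS, and at 2.404, 2.51 and 2.31 FPKM in SK-BR-3 with DMSO and 9.301, 7.503 and 8.202 FPKM with DATS. The MCF-10A groups lay on each other, and all treated SK-BR-3 libraries were above their controls. The difference was 1.44 ± 0.29 (adjusted p = 0.024). GPX2, the epithelial glutathione peroxidase, stood at 2.04, 1.01 and 1.53 FPKM in MCF-10A with DMSO and 1.08, 1.200 and 0.808 FPKM with DATS, and at 6.53, 3.79 and 8.15 FPKM in SK-BR-3 with DMSO and 18.3, 11.8 and 16.9 FPKM with DATS. It was higher in every treated SK-BR-3 library and overlapped in MCF-10A, with a difference of 1.55 ± 0.33 (adjusted p = 0.029). The calls were kept in 7 of the 12 fits for TGFBI and 6 for GPX2, with an adjusted p of up to 0.066 without MCF-10A DATS replicate 2 and 0.079 without MCF-10A DMSO replicate 1. The other 3 rises of the naming rule, CDKN3, DLGAP5 and KIF20A, are genes of the cell cycle and differed by 1.54 ± 0.22, 1.45 ± 0.24 and 1.42 ± 0.25; all 3 were kept in each of the 12 fits.

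Among 9 counted basal breast epithelium markers 5 rose in SK-BR-3, beside 12.6% of all counted genes, and none was called in MCF-10A. The difference was called for 3, beside 4.2% of all counted genes: KRT17 (1.35 ± 0.32) and the caveolae genes CAV2 (0.82 ± 0.11) and CAV1 (0.77 ± 0.15). CAV2 stood at 32.5, 33.9 and 36.2 FPKM in MCF-10A with DMSO and 38.3, 38.8 and 40.8 FPKM with DATS, and at 1.29, 1.03 and 1.28 FPKM in SK-BR-3 with DMSO and 3.54, 3.11 and 3.71 FPKM with DATS. Its treated libraries were above the controls in both lines, and the call was for the wider step in SK-BR-3. CAV2 was kept in each of the 12 fits, KRT17 in 3 (adjusted p = 0.10 without MCF-10A DATS replicate 2) and CAV1 in 7 (adjusted p = 0.062 without MCF-10A DMSO replicate 1). The summed level of all 20 basal markers was 88.9 to 106 FPKM in SK-BR-3 with DMSO and 142 to 168 FPKM with DATS. In MCF-10A it was 5853 to 7590 FPKM with DMSO and 6140 to 7798 FPKM with DATS. Outside the 9 counted markers, MCF-10A held 917 to 1098 FPKM of KRT5 with DMSO and 666 to 709 FPKM with DATS. KRT14 stood there at 1472 to 1620 FPKM and 1176 to 1471 FPKM. CDH3 went the other way, from 111 to 147 FPKM with DMSO to 152 to 159 FPKM with DATS. KRT14 reached at most 0.303 FPKM and the basal regulator TP63 at most 0.0675 FPKM in any SK-BR-3 library with DATS.

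The genes that fell in SK-BR-3 alone included surface and metabolic genes. SELENBP1, a methanethiol oxidase, stood at 5.76, 4.204 and 2.67 FPKM in MCF-10A with DMSO and 5.38, 4.704 and 3.04 FPKM with DATS, and at 61.8, 75.4 and 82.7 FPKM in SK-BR-3 with DMSO and 17.7, 32.7 and 29.97 FPKM with DATS. It fell by 1.45 in SK-BR-3 and its groups overlapped in MCF-10A. RHPN1 stood at 5.31, 5.31 and 5.35 FPKM in MCF-10A with DMSO and 7.74, 6.61 and 5.48 FPKM with DATS, and at 23.7, 19.5 and 23.9 FPKM in SK-BR-3 with DMSO and 9.41, 12.9 and 8.88 FPKM with DATS. The treated libraries were slightly above the controls in MCF-10A and far below them in SK-BR-3. The differences were -1.52 ± 0.37 (adjusted p = 0.045) and -1.301 ± 0.20 (adjusted p = 0.008). Of the 2, RHPN1 was kept in each of the 12 fits and SELENBP1 in 3 (adjusted p = 0.11 without MCF-10A DATS replicate 2).

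MUC1, a membrane mucin of luminal epithelium, stood at 17.2, 14.4 and 22.5 FPKM in MCF-10A with DMSO and 35.4, 28.4 and 30.6 FPKM with DATS, and at 3.46, 4.85 and 6.24 FPKM in SK-BR-3 with DMSO and 1.55, 2.94 and 2.92 FPKM with DATS. It moved apart in the lines: the fall in SK-BR-3 was called and the change of 0.79 ± 0.22 in MCF-10A was not (adjusted p = 0.054), although no MCF-10A libraries overlapped. Its difference was -1.54 ± 0.31 (adjusted p = 0.023), kept in 6 of the 12 fits (adjusted p = 0.065 without MCF-10A DMSO replicate 2). The ectonucleotidase gene ENTPD2, the sterol reductase gene TM7SF2 and the stress gene GADD45B differed by -1.24 ± 0.23, -1.22 ± 0.29 and -1.17 ± 0.27. Their calls were kept in 9, 3 and 5 of the 12 fits, with an adjusted p of up to 0.057, 0.11 and 0.099.

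TUBB, a beta tubulin, stood at 389.9, 378 and 478 FPKM in MCF-10A with DMSO and 438, 446 and 529 FPKM with DATS, and at 353, 478 and 504 FPKM in SK-BR-3 with DMSO and 202, 227 and 263 FPKM with DATS. It fell in SK-BR-3 (-0.94 ± 0.15), where the groups did not overlap, and measured 0.18 ± 0.15 in MCF-10A, where they did, with a difference of -1.12 ± 0.22 (adjusted p = 0.022), kept in 7 of the 12 fits (adjusted p = 0.065 without MCF-10A DMSO replicate 1). In a list of 12 counted genes for tubulins, tubulin folding cofactors and stathmin it was the sole called difference, beside 4.2% of all counted genes. With the replicate block 1 was higher and 4 were lower, beside 9.98% called of all counted genes. ERBB2, the amplified receptor of SK-BR-3, stood at 8.603, 8.26 and 7.91 FPKM in MCF-10A with DMSO and 8.56, 8.81 and 8.49 FPKM with DATS, and at 517, 494 and 469.7 FPKM in SK-BR-3 with DMSO and 404, 377 and 389 FPKM with DATS. Every treated SK-BR-3 library was below the controls, and MCF-10A overlapped. The difference for ERBB2 was small, -0.39 ± 0.09 (adjusted p = 0.041), and was kept in 3 of the 12 fits (adjusted p = 0.11 without MCF-10A DATS replicate 2).

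Responses called in MCF-10A alone, with a called difference, were 32 rises and 34 falls. LIF, a cytokine of the interleukin 6 family (chr22:30240447-30246851), stood at 1.47, 2.23 and 4.99 FPKM in MCF-10A with DMSO and 16.6, 19.99 and 9.71 FPKM with DATS, and at 1.98, 1.26 and 1.68 FPKM in SK-BR-3 with DMSO and 2.04, 0.967 and 0.914 FPKM with DATS. MCF-10A rose in all preparations, least in preparation 3, and SK-BR-3 overlapped. The difference of -2.34 ± 0.46 (adjusted p = 0.022) was kept in 6 of the 12 fits (adjusted p = 0.065 without MCF-10A DMSO replicate 2). ELF3, an ETS factor of epithelial differentiation (chr1:202007945-202017188), stood at 2.93, 1.999 and 3.39 FPKM in MCF-10A with DMSO and 11.2, 9.96 and 6.19 FPKM with DATS, and at 75.1, 73.7 and 69.8 FPKM in SK-BR-3 with DMSO and 73.2, 62.5 and 59.2 FPKM with DATS. MCF-10A rose from a low level without overlap, while SK-BR-3 stood high throughout, with a change of -0.17 ± 0.19 that was not called. The difference of -1.57 ± 0.26 (adjusted p = 0.011) was kept in each of the 12 fits.

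H1F0, the linker histone H1.0, stood at 19.1, 18.5 and 19.5 FPKM in MCF-10A with DMSO and 56.95, 53.5 and 27.1 FPKM with DATS, and at 165, 167 and 169 FPKM in SK-BR-3 with DMSO and 149, 105 and 101 FPKM with DATS. The treated MCF-10A libraries were above all controls, with preparation 3 nearest to them. In SK-BR-3 the treated libraries were all below the controls, though that fall was not called, so both lines enter the difference of H1F0. HIST2H2BE, a histone H2B gene, stood at 1.81, 1.68 and 2.45 FPKM in MCF-10A with DMSO and 5.51, 5.61 and 5.28 FPKM with DATS, and at 6.77, 3.64 and 4.39 FPKM in SK-BR-3 with DMSO and 5.504, 4.96 and 3.99 FPKM with DATS. It separated in MCF-10A and overlapped in SK-BR-3. The differences were -1.67 ± 0.33 and -1.13 ± 0.24, kept in 5 and 6 of the 12 fits (adjusted p = 0.062 and 0.083 without MCF-10A DMSO replicate 2). The naming rule also chose CYSRT1 (-1.66 ± 0.39) and TMEM132A (-1.27 ± 0.25), kept in 3 and 6 of the 12 fits, with an adjusted p of up to 0.11 and 0.065. CYSRT1 was also lost with the replicate block (adjusted p = 0.068). Of 8 counted replication-dependent histone genes 4 rose in MCF-10A and 1 fell in SK-BR-3, beside 3.69% and 7.23% of all counted genes. HIST2H2BE and HIST3H2A (-1.03 ± 0.26, kept in 2 of the 12 fits) had called differences, beside 4.2% of all counted genes. With the replicate block 4 of the 8 were called, all lower in SK-BR-3, beside 9.98% of all counted genes. Such genes have near-identical copies, and reads may have been divided among them.

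Among 10 counted luminal breast epithelium markers 5 rose in MCF-10A, and 2 rose and 2 fell in SK-BR-3. Over all counted genes 3.69% rose in MCF-10A, and 12.6% rose and 7.23% fell in SK-BR-3. The difference was called for 4, all lower in SK-BR-3, beside 1.49% of all counted genes. They were ELF3, MUC1, the pioneer factor FOXA1 (-0.98 ± 0.19) and the secretory factor XBP1 (-0.81 ± 0.15). FOXA1 stood at 3.25, 3.57 and 5.004 FPKM in MCF-10A with DMSO and 7.64, 6.62 and 6.59 FPKM with DATS, and at 44.3, 53.8 and 48.2 FPKM in SK-BR-3 with DMSO and 45.4, 37.8 and 36.8 FPKM with DATS. It rose in MCF-10A without overlap and overlapped in SK-BR-3. Its call was kept in 5 of the 12 fits (adjusted p = 0.062 without MCF-10A DMSO replicate 2) and that of XBP1 in 7 (adjusted p = 0.06 without MCF-10A DMSO replicate 2). Over the 20 luminal markers the summed level was 815 to 1114 FPKM in MCF-10A with DMSO and 1246 to 1522 FPKM with DATS, against 4906 to 7113 FPKM in SK-BR-3 with DMSO and 6581 to 7803 FPKM with DATS.

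Among the falls in MCF-10A alone the naming rule chose NOTCH3, a Notch receptor, and BIRC5, the survivin gene of mitosis and cell survival. NOTCH3 (chr19:15159038-15200981) stood at 5.95, 5.04 and 4.99 FPKM in MCF-10A with DMSO and 2.54, 2.95 and 2.73 FPKM with DATS, and at 17.8, 14.9 and 16.7 FPKM in SK-BR-3 with DMSO and 19.9, 16.8 and 19.1 FPKM with DATS. MCF-10A fell without overlap by 0.76, and SK-BR-3 overlapped. Its difference of 0.92 ± 0.13 (adjusted p = 0.0065) was kept in each of the 12 fits. BIRC5, the kinesin gene KIF2C, the lamin gene LMNB1, the corepressor gene HR and the kinetochore gene CENPN differed by 0.98 ± 0.19, 0.83 ± 0.18, 0.82 ± 0.18, 0.81 ± 0.17 and 0.81 ± 0.16. They were kept in 8, 5, 4, 7 and 8 of the 12 fits, with an adjusted p of up to 0.066 for BIRC5, 0.086 for KIF2C, 0.089 for LMNB1, 0.079 for HR and 0.066 for CENPN.

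**Figure D4:**
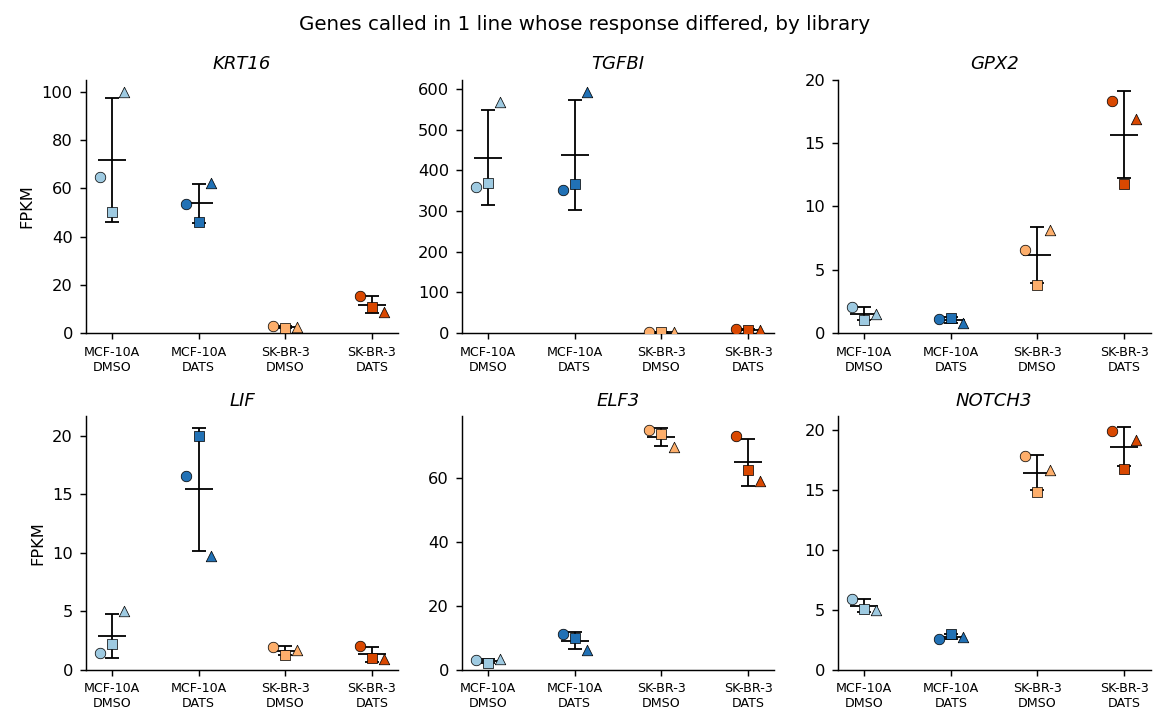
FPKM of 6 genes in each library (circle, square and triangle for preparations 1, 2 and 3), by line and treatment, with the group mean (long bar) and SD (whiskers, n = 3); each panel has its own axis from 0. KRT16, TGFBI and GPX2 separate by treatment in SK-BR-3 and overlap in MCF-10A; LIF, ELF3 and NOTCH3 separate in MCF-10A and overlap in SK-BR-3.

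The NRF2 list gave shared rises of unequal size. Of 31 counted members 9 rose in MCF-10A, all 9 of which also rose in SK-BR-3, where 18 rose. Over all counted genes 3.69% rose in MCF-10A and 12.6% in SK-BR-3. No member fell in either line. The medians were 0.16 in MCF-10A, 0.45 in SK-BR-3 and 0.25 for the difference. NQO1, the quinone reductase, rose in both lines and stood at 64.1, 64.1 and 64.2 FPKM in MCF-10A with DMSO and 88.7, 96.4 and 104 FPKM with DATS, and at 94.2, 89.04 and 86.4 FPKM in SK-BR-3 with DMSO and 142, 139 and 142 FPKM with DATS. Its groups did not overlap in either line, and the difference of 0.07 ± 0.10 had a 95% interval from -0.15 to 0.29. HMOX1, which breaks down heme, stood at 1.202, 2.48 and 3.58 FPKM in MCF-10A with DMSO and 5.35, 6.27 and 5.72 FPKM with DATS, and at 17.00, 13.9 and 11.6 FPKM in SK-BR-3 with DMSO and 56.4, 35.1 and 34.9 FPKM with DATS. It rose in both lines without overlap, by 1.05 and 1.48, and the interval of its difference, -0.34 to 1.21, is wide.

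Other members of the list responded in SK-BR-3 alone. GCLM, the modifier subunit of glutamate-cysteine ligase, stood at 8.34, 8.77 and 9.34 FPKM in MCF-10A with DMSO and 9.86, 9.05 and 10.96 FPKM with DATS, and at 13.02, 11.7 and 11.6 FPKM in SK-BR-3 with DMSO and 30.9, 26.3 and 28.6 FPKM with DATS. The treated SK-BR-3 libraries were all above their controls and the MCF-10A groups overlapped. GCLM rose by 1.18 in SK-BR-3 against 0.16 ± 0.09 in MCF-10A, a difference of 1.02 ± 0.12 (adjusted p = 0.0037) kept in each of the 12 fits. TXNRD1, the cytosolic thioredoxin reductase, stood at 22.2, 19.8 and 19.8 FPKM in MCF-10A with DMSO and 29.7, 28.8 and 31.9 FPKM with DATS, and at 142, 111 and 105 FPKM in SK-BR-3 with DMSO and 328, 276 and 286 FPKM with DATS. It rose in both lines without overlap and rose more in SK-BR-3, by 1.32 against 0.53.

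TXNRD1 (0.79 ± 0.16) and ME1, the cytosolic malic enzyme that supplies NADPH (0.60 ± 0.09), were the 2 genes called in both lines in the same direction with a called difference. ME1 was kept in each of the 12 fits, and TXNRD1 in 5 (adjusted p = 0.077 without MCF-10A DMSO replicate 1). The 3 remaining calls in the list were AKR1B10, an aldo-keto reductase (1.06 ± 0.26), PIR, the iron-binding pirin (0.79 ± 0.15), and NFE2L2, which encodes NRF2 (0.48 ± 0.12). Each was called in SK-BR-3 alone, and the differences were kept in 2, 10 and 1 of the 12 fits, with an adjusted p of up to 0.12, 0.06 and 0.13. The 6 calls of the list became 10 with the replicate block and 2 without MCF-10A DMSO replicate 1. The 6 stood beside 4.2% called of all counted genes, and the 10 beside 9.98%. The fit without MCF-10A DMSO replicate 1 called 69 of all counted genes higher and 36 lower.

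The rises shared by both lines were led by GDF15, a stress cytokine, which stood at 5.87, 5.97 and 7.03 FPKM in MCF-10A with DMSO and 29.1, 30.6 and 12.7 FPKM with DATS, and at 14.3, 7.604 and 5.08 FPKM in SK-BR-3 with DMSO and 68.4, 32.8 and 21.4 FPKM with DATS. It rose in every preparation, but the preparations differed in level, and the 95% interval of the difference ran from -1.04 to 1.67. SDCBP2, a syntenin, GPRC5A, an orphan receptor induced by retinoic acid, CST6, a secreted protease inhibitor, and TMEM40, a membrane protein, were the other shared rises. Their differences lay between -0.05 ± 0.33 (CST6) and 0.34 ± 0.28 (TMEM40), and none was called.

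Cytosolic heat shock proteins rose in SK-BR-3 for 13 of 23 counted members, with none falling, and in MCF-10A 1 rose and 3 fell. Over all counted genes 12.6% rose and 7.23% fell in SK-BR-3, and 3.69% rose and 2.41% fell in MCF-10A. The medians were 0.34 in SK-BR-3 and -0.03 in MCF-10A. HSPB1, the small heat shock protein HSP27, stood at 864, 688 and 1228 FPKM in MCF-10A with DMSO and 835, 799 and 1125 FPKM with DATS, and at 1032, 1133 and 1032 FPKM in SK-BR-3 with DMSO and 2529.8, 2205 and 2273 FPKM with DATS. All treated SK-BR-3 libraries were above their controls, and MCF-10A overlapped. HSPB8, another member of the list, stood at 3.43, 2.46 and 5.32 FPKM in MCF-10A with DMSO and 6.51, 6.39 and 5.28 FPKM with DATS. In SK-BR-3 it stood at 2.35, 3.18 and 3.15 FPKM with DMSO and 12.95, 13.3 and 13.9 FPKM with DATS. SK-BR-3 was separated widely, and the MCF-10A groups overlapped at preparation 3.

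The differences were 1.12 ± 0.27 for HSPB1 and 1.28 ± 0.25 for HSPB8, kept in 3 of the 12 fits (adjusted p = 0.11 without MCF-10A DATS replicate 2) and in 9 (adjusted p = 0.058 without MCF-10A DMSO replicate 1). HSP90AA1, the inducible HSP90, was opposite, and stood at 434, 423 and 396 FPKM in MCF-10A with DMSO and 276, 276 and 312 FPKM with DATS, and at 282, 310.0 and 297 FPKM in SK-BR-3 with DMSO and 349, 384 and 396 FPKM with DATS. It fell in MCF-10A and rose in SK-BR-3, a difference of 0.88 ± 0.12 (adjusted p = 0.0061) kept in each of the 12 fits. HSPH1 (0.70 ± 0.15) and CHORDC1 (0.59 ± 0.14), both cochaperones, were the remaining calls, kept in 5 and 2 of the 12 fits, with an adjusted p of up to 0.078 and 0.11. BAG3, an HSF1 target, rose in both lines (0.43 ± 0.11 and 0.50 ± 0.11). HSPA1A stood at 50.6, 50.03 and 63.1 FPKM in MCF-10A with DMSO and 62.7, 60.3 and 56.01 FPKM with DATS, and at 58.5, 59.7 and 57.9 FPKM in SK-BR-3 with DMSO and 53.8, 50.6 and 46.6 FPKM with DATS. It was called in neither line, and its near-identical copy HSPA1B may share its reads. The 5 calls became 9 with the replicate block and 1 in the lowest of the fits with 1 library left out. Over all counted genes the difference was called for 4.2%, and for 9.98% with the block. Of 31 counted proteasome subunits 10 rose in SK-BR-3, beside 12.6% of all counted genes, and none changed in MCF-10A. The difference was called for 2, beside 4.2% of all counted genes: PSMC6 (0.46 ± 0.09) and PSMC1 (0.39 ± 0.09), kept in 8 and 1 of the 12 fits, with an adjusted p of up to 0.065 and 0.12. With the replicate block 4 were called, beside 9.98% of all counted genes.

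The NF-kB list, of target and feedback genes of that inflammatory factor, rose in MCF-10A more often than in SK-BR-3 by count, but limma called no difference. Of 21 counted members 13 rose in MCF-10A, 5 rose in SK-BR-3 and 4 rose in both, beside 3.69%, 12.6% and 1.32% of all counted genes. The medians were 0.76 and 0.27, with a median difference of -0.48. At an unadjusted p under 0.05 the difference stood for 11 of the 21, beside 21.2% of all counted genes. TNFAIP3, the ubiquitin-editing inhibitor A20, stood at 8.55, 8.75 and 12.1 FPKM in MCF-10A with DMSO and 26.5, 31.8 and 20.3 FPKM with DATS, and at 9.76, 5.95 and 5.42 FPKM in SK-BR-3 with DMSO and 12.6, 6.95 and 7.96 FPKM with DATS. MCF-10A separated by treatment and SK-BR-3 overlapped, but the difference of -0.99 ± 0.35 had an adjusted p of 0.13. TNIP1, its binding partner, rose in both lines, with a difference of -0.81 ± 0.26 (adjusted p = 0.11). Preparation 3 of MCF-10A gave a median response of 0.35, against 1.05 and 0.91 in preparations 1 and 2. Called differences numbered 0 with limma, 3 with edgeR, 5 with the replicate block and 6 without MCF-10A preparation 3, all lower in SK-BR-3. Over all counted genes these settings called 4.2%, 3.74%, 9.98% and 6.36%.

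**Figure D5:**
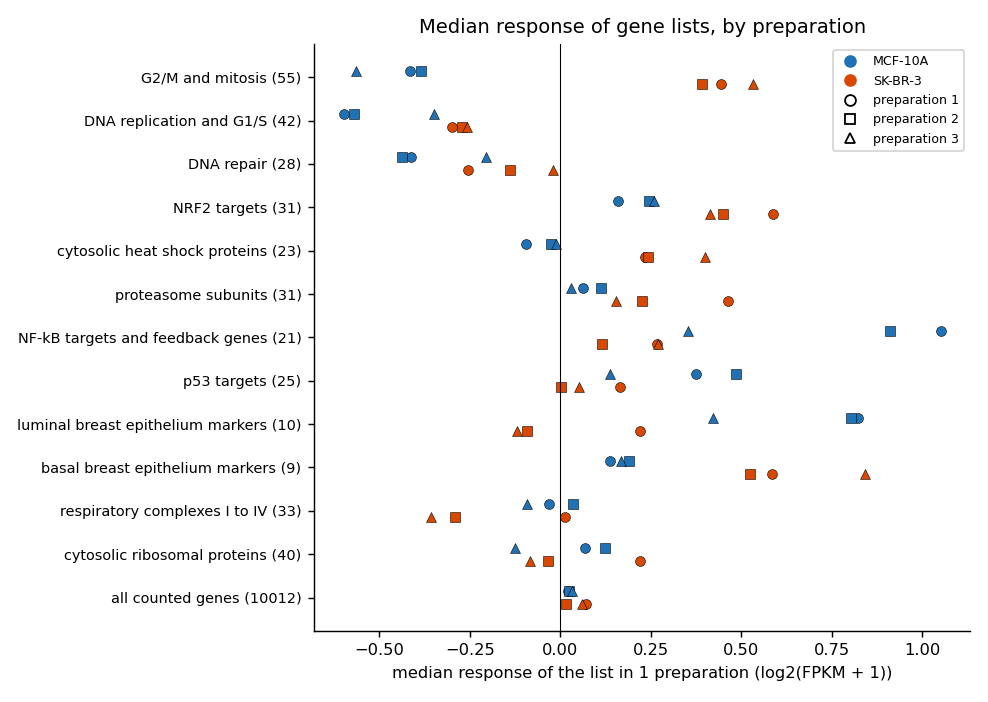
Median response (DATS minus DMSO within 1 preparation, log2(FPKM + 1)) of 12 gene lists and of all counted genes, with the number of counted genes in brackets, for preparations 1 to 3 of MCF-10A (blue) and SK-BR-3 (orange). The 2 lines do not overlap for the G2/M, replication, NRF2, heat shock, proteasome, NF-kB, luminal and basal lists, and both lie near 0 for all counted genes.

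Several genes often studied with DATS showed no called difference. CDKN1A, the p21 cell cycle inhibitor, stood at 88.4, 92.5 and 176 FPKM in MCF-10A with DMSO and 252, 263 and 264 FPKM with DATS, and at 13.4, 15.1 and 11.8 FPKM in SK-BR-3 with DMSO and 25.6, 16.4 and 13.8 FPKM with DATS. MCF-10A separated by treatment, SK-BR-3 overlapped, and the difference was -0.79 ± 0.36 (adjusted p = 0.23). STAT3 rose in SK-BR-3 (0.46 ± 0.11) and measured 0.32 ± 0.11 in MCF-10A, with a difference of 0.14 ± 0.15. CCND1, LDHA, JUN and DDIT3 were called in neither line, and their differences were -0.16 ± 0.25, -0.04 ± 0.23, -0.25 ± 0.56 and -0.30 ± 0.26. PTGS2, FOXQ1 and CXCL8 had mean levels of 0.0135, 0.00454 and 0.240 FPKM in SK-BR-3, under the rule's minimum, and were not compared.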

How the data were processed

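RNA of 12 cultures was sequenced. Per the submitters' processing notes, STAR 2.6.1d and DESeq2 were used with GRCh38 (hg38); the FPKM values were computed by the authors, and the counting tool and its strand setting are not stated there. The authors also deposited raw read counts for the genes of their own comparisons, from which 1 size per library was derived. FPKM times gene length (GENCODE 29) times that size was a whole number, to within 1e-06 reads, in all 704820 values. These recovered reads gave the depth, the ribosomal RNA shares and the chi-square values, and served alternatives to the main fit. Depth was 15295046 to 18407213 reads, and precision is that of 3 libraries a group.

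Values were analysed as log2(FPKM + 1), so changes of low genes are understated, in R 4.3.3 with limma 3.58.1: 13194 genes with at least 1 FPKM in 3 libraries, 4 group means, trended variance, and Benjamini-Hochberg adjustment over all 13194. Responses are DATS minus DMSO, and the difference is the response of SK-BR-3 minus that of MCF-10A. edgeR 4.0.16 and DESeq2 1.42.0 on recovered reads, other filters, scalings, weights and libraries left out were alternatives.

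Same-numbered DMSO and DATS libraries deviated together in each line (correlations of 0.25, 0.23 and 0.37 for MCF-10A, and of 0.43, 0.28 and 0.28 for SK-BR-3). All are over 0.1, which was taken as pairing. That mark alone does not single out same-numbered libraries. Differently numbered ones also passed it, at 0.15 and 0.14 between MCF-10A preparations 1 and 2. SK-BR-3 DMSO library 3 with DATS library 2 gave 0.12, and the remaining differently numbered pairs were negative. The block fit is given beside counts that it moves by over 1.5 times.

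Genes were named by rule: protein-coding, at least 5 FPKM in a group, the 6 with the largest differences in each class and direction (shared: the 6 largest responses), up to 3 per gene list, and a panel. Others from the lists, such as MKI67, PLK1 and CDK1, were chosen after their values were seen. A result of the rule is not reported here. The counted genes and the lists were chosen with earlier results of these data known.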

Additional observations from a re-analysis of the deposited data

Results flagged for a closer look

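The results below were marked because the test of the difference between the responses of the lines passed its threshold, an adjusted p under 0.05 by limma. Over all counted genes it passed for 272 genes in the direction of SK-BR-3 and for 149 in the direction of MCF-10A. Values in brackets are differences, SK-BR-3 minus MCF-10A, in log2(FPKM + 1), for genes named in the text.

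Fall in MCF-10A and rise in SK-BR-3 were called for CDC20 (1.79), CCNB1 (1.55), CEP55 (1.501), PHF19 (1.21), TPX2 (1.15), KIF20B (1.14), MKI67 (1.11), CCNA2 (1.102), MAD2L1 (1.05), HSP90AA1 (0.88), FOXM1 (0.86) and PLK4 (0.82). Rise in MCF-10A and fall in SK-BR-3 were called for PTK6 (-1.32), ZNF467 (-1.28), SAMD10 (-1.08), PRKCD (-1.08), SLC22A18 (-0.97) and STEAP3 (-0.79). With a response called in SK-BR-3 alone, the difference was positive for KRT16 (2.18), GPX2 (1.55), CDKN3 (1.54), DLGAP5 (1.45), TGFBI (1.44), KIF20A (1.42), KRT17 (1.35), PLK1 (1.33), HSPB8 (1.28), AURKA (1.25), HSPB1 (1.12) and AKR1B10 (1.06). The same held for GCLM (1.02), CAV2 (0.82), PIR (0.79), CAV1 (0.77), HSPH1 (0.70), CHORDC1 (0.59), NFE2L2 (0.48), PSMC6 (0.46) and PSMC1 (0.39). It was negative, with a response called in SK-BR-3 alone, for MUC1 (-1.54), SELENBP1 (-1.52), RHPN1 (-1.301), ENTPD2 (-1.24), TM7SF2 (-1.22), GADD45B (-1.17), TUBB (-1.12), HIST3H2A (-1.03), XBP1 (-0.81), ATG2A (-0.50) and ERBB2 (-0.39). Where MCF-10A alone was called, the difference was positive for PRIM1 (1.01), BIRC5 (0.98), NOTCH3 (0.92), KIF2C (0.83), LMNB1 (0.82), HR (0.81), CENPN (0.81), BRCA1 (0.71), RRM1 (0.53) and UHRF1 (0.50). Among the MCF-10A calls it was negative for LIF (-2.34), H1F0 (-1.67), CYSRT1 (-1.66), ELF3 (-1.57), TMEM132A (-1.27), HIST2H2BE (-1.13) and FOXA1 (-0.98). Called in both lines in 1 direction were TXNRD1 (0.79) and ME1 (0.60).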

How the results depend on the processing

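Counts are given in 1 order: differences higher and lower in SK-BR-3, shared rises, shared falls, opposite responses, and responses with a called difference in MCF-10A alone and in SK-BR-3 alone. With the reported settings they were 272, 149, 132, 58, 37, 66 and 287. They were 223, 108, 106, 43, 30, 49 and 228 with a pseudocount of 0.1 FPKM, 103, 44, 44, 17, 6, 18 and 112 with no filter on low values, and 200, 74, 86, 40, 27, 35 and 190 with a minimum of 5 FPKM in each line. A fit on the counted genes alone gave 273, 159, 141, 61, 38, 74 and 293. Quantile normalization gave 292, 164, 136, 124, 41, 122 and 263, and 1 quality weight per group gave 260, 140, 172, 81, 46, 92 and 230. On the recovered reads edgeR gave 189, 185, 118, 71, 34, 73 and 236 and DESeq2 gave 495, 383, 253, 130, 75, 202 and 512. Without MCF-10A preparation 3, added after seeing the data, they were 354, 283, 249, 55, 62, 202 and 320. With the preparation number as a replicate block within each line they were 592, 407, 496, 179, 143, 219 and 557, so the block raised every count. With 1 library left out the ranges were 66 to 433, 27 to 342, 13 to 341, 6 to 97, 1 to 90, 6 to 283 and 78 to 381. Of the 421 genes with a called difference, 411 were also called under the block, 318 by edgeR and 417 by DESeq2. The cause of these shifts was not tested, but by construction more genes are tested without the filter, fewer are counted under the stricter minimum, and fewer libraries enter when 1 is left out. Among the named genes with a called difference 1, CYSRT1, lost it under the block, and none changed direction under any alternative run. With 3 libraries a group, genes whose preparations vary widely, such as GDF15, could hide a difference of the size given by their intervals.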

Other observations

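Some gene lists not described above moved in 1 line without a called difference. Of 33 counted nuclear genes of respiratory complexes I to IV 7 fell in SK-BR-3 and 1 fell in MCF-10A, beside 7.23% and 2.41% of all counted genes. No difference was called by limma (2 at an unadjusted p under 0.05 and 1 called under the replicate block, beside 21.2% and 9.98% of all counted genes). NDUFV1, a flavoprotein subunit of complex I, fell in SK-BR-3 (-0.65 ± 0.10) and measured -0.16 ± 0.10 in MCF-10A, with a difference of -0.49 ± 0.14 (adjusted p = 0.081). Of 25 counted p53 targets 5 rose in MCF-10A, and in SK-BR-3 1 rose and 1 fell, beside 3.69%, 12.6% and 7.23% of all counted genes. No difference was called by limma; 6 stood at an unadjusted p under 0.05 and 3 were called under the replicate block, beside the same 21.2% and 9.98%.

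Autophagy and lysosome genes rose for 15 of 34 counted members in SK-BR-3 and for 4 in MCF-10A, all 4 shared. Over all counted genes 12.6% rose in SK-BR-3, 3.69% in MCF-10A and 1.32% in both. The difference of ATG2A, a lipid transfer protein of autophagosomes, was called in the other direction (-0.50 ± 0.10). That call was kept in 5 of the 12 fits with 1 library left out, with an adjusted p of up to 0.079. Genes of the matrix, proteolysis and adhesion list rose for 8 of 20 counted members in SK-BR-3 and 6 in MCF-10A, 2 in both. Over all counted genes these shares were 12.6%, 3.69% and 1.32%. No difference was called by limma. At an unadjusted p under 0.05 it stood for 3, beside 21.2% of all counted genes. It was called for 1 by edgeR and for 3 under the replicate block (2 higher and 1 lower), beside 3.74% and 9.98%. PLAU, the urokinase protease, stood at 33.2, 46.2 and 98.9 FPKM in MCF-10A with DMSO and 199, 237 and 211 FPKM with DATS, and at 7.09, 10.6 and 16.1 FPKM in SK-BR-3 with DMSO and 16.6, 13.1 and 20.2 FPKM with DATS. It rose in MCF-10A without overlap and overlapped in SK-BR-3, with a difference of -1.42 ± 0.50 (adjusted p = 0.13). Of 40 cytosolic ribosomal protein genes none was called in either line.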
